A study of Mus musculus with 9 samples.

Results

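The genes described here carry out fatty acid uptake and beta-oxidation: 31 mouse genes were listed by name for their step in this pathway. No rule on measured values was used, but earlier results of these data were known when the list was made. Of the 31 genes, 29 had a probe set of their own among 30142 genes on the arrays. By step, the measured genes were 6 of 6 for uptake, 5 of 6 for activation and the carnitine shuttle, 14 of 14 for oxidation, 2 of 3 for electron transfer and 2 of 2 regulators. Acsl1, the acyl-CoA synthetase that activates fatty acids, was not analysed here, and neither was Etfb, whose probe set also carries the name of a microRNA gene. The study asked, by its title, whether vesicles secreted by cardiac progenitor cells can equal the functional benefit of the cells. Whole hearts of immunodeficient nude mice were profiled on 9 Affymetrix whole-transcript arrays, 6 weeks after treatment. Every group, sham included, carried a permanent ligation of the left anterior descending coronary artery, was treated 3 weeks after it, and had entered the study with an ejection fraction under 50%. The control group (2 arrays) received alpha-MEM, a culture medium. The cell group (3 arrays) received 500000 cardiac progenitor cells per mouse, the vesicle group (3 arrays) the extracellular vesicles that 500000 such cells secrete in 48 hours, and the sham group (1 array) 3 needle insertions into the heart wall with nothing injected. Injections were guided by echocardiography through the closed chest, at 3 sites beside the infarct with 10 uL each. The sample titles place the sham array and 1 array of each injected group in experiment 9 and the other 5 arrays in experiment 1. They also give a VTS number, which is 3 throughout experiment 9 and is 1 or 2 in experiment 1; the labels do not say what either number stands for. Nothing in the labels says that each array is a separate animal, so the p-values measure the spread between these arrays, which may be partly technical.

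Fatty acids are the main fuel of the adult heart. They are freed from circulating lipoproteins, cross the muscle cell membrane with the help of transport proteins, are joined to coenzyme A and enter mitochondria as carnitine esters. In the mitochondrial matrix a repeating cycle of dehydrogenation, hydration, a further dehydrogenation and thiolysis shortens the chain, and the electrons pass through electron transfer flavoprotein to the respiratory chain. The nuclear receptor PPAR alpha (Ppara) and its coactivator PGC-1 alpha (Ppargc1a) are known to drive many of these genes, and failing hearts are known to use less fatty acid.

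The deposited values are log2 expression levels, and a level is compared here only with the level of the same gene on another array. Array medians over all probe sets lay between 4.89 and 4.92, and the level that 95% of the negative controls stay under lay between 7.18 and 7.28. Of the 29 genes, 27 were above that level on every array, and Acaa1a and Slc27a4 were above it on none. Heart muscle genes were strongly present on all 9 arrays: the mean log2 level of 10 markers lay between 11.25 and 11.41. Vesicle array 3 stood apart by lung transcripts: the surfactant gene Sftpc read 9.75 on it and 4.28 to 6.35 on the other 8 arrays, with the sham array at 6.35. Scgb1a1, a club cell gene, read 8.90 on vesicle array 3 and 4.64 to 4.79 on the others. In whole-heart RNA, fewer cells of a type and less RNA per cell cannot be told apart.

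No gene of the pathway passed the test between treatments, and the values moved within narrow limits. The distance between the highest and lowest of the 9 arrays was 0.069 to 0.54 log2 units per gene, with a median of 0.28. The extremes fell on a few arrays. Cell array 1 was the highest array for 18 genes (12.2% of all genes; 18.7% of the 6667 genes whose mean is above the negative controls, called brighter genes below). Vesicle array 3 was the lowest for 13 (9.01% of all genes; 15.5% of the brighter genes), and the sham array for 8 (13.4% of all genes; 9.90% of the brighter genes).

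**Figure D1:**
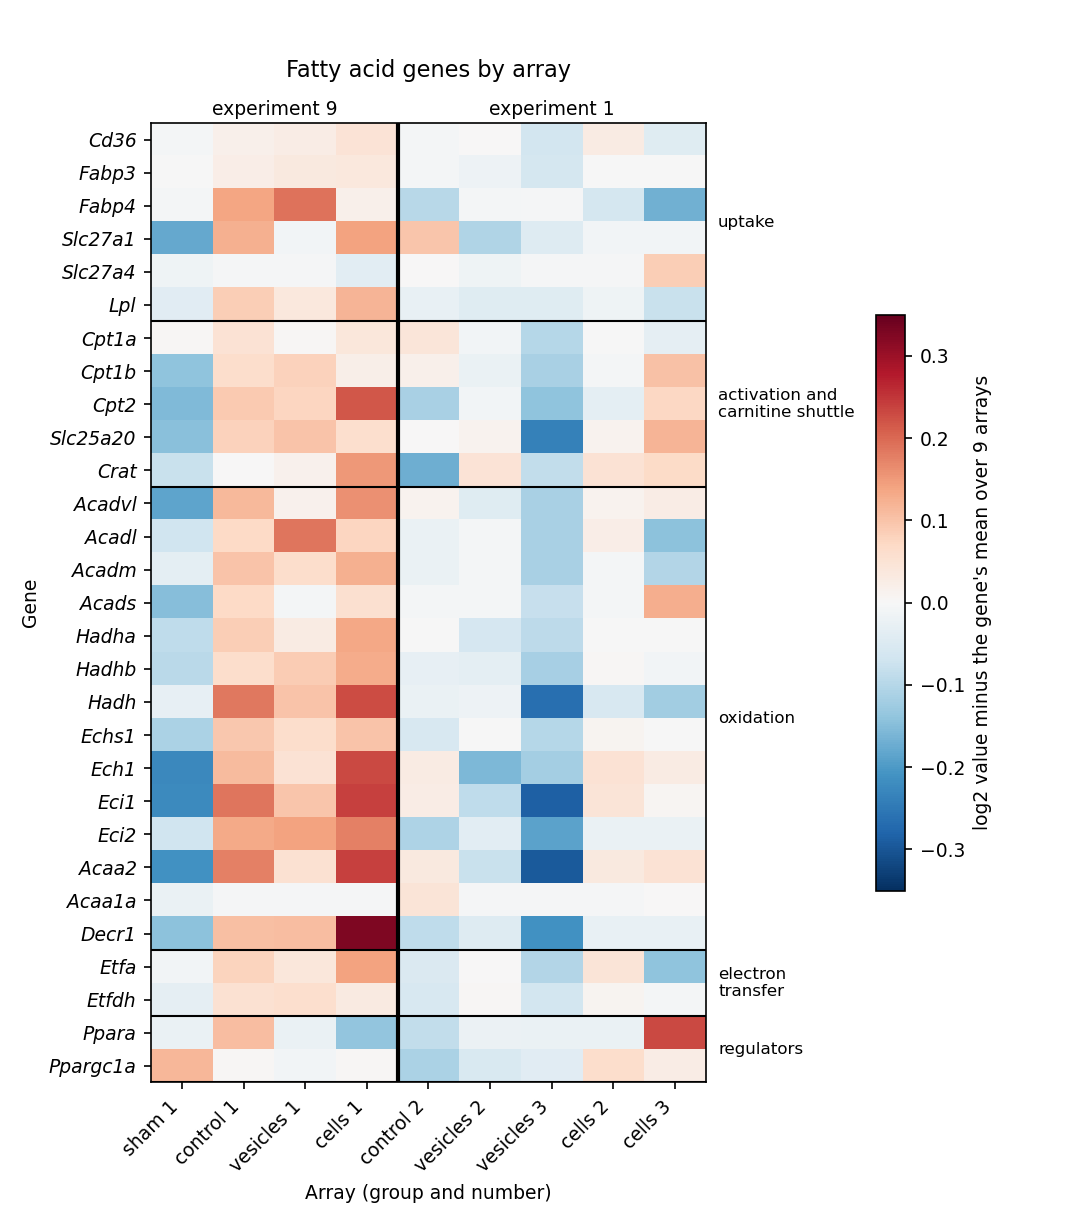
Each row is 1 of the 29 measured genes, grouped by step, and each column 1 array, with experiment 9 on the left and experiment 1 on the right. Colour gives the log2 value minus the mean of that gene over the 9 arrays; the columns of vesicle array 3 and of the sham array are mostly below 0, and cell array 1 is mostly above.

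Uptake begins with lipoprotein lipase (Lpl), which frees fatty acids at the vessel wall, and continues through the translocase Cd36, the transport proteins Slc27a1 and Slc27a4, and the fatty acid binding proteins Fabp3 of muscle and Fabp4 of endothelium and fat. Cd36 read 11.54 on the sham array, 11.56 and 11.54 on the control arrays of experiments 9 and 1, 11.57, 11.55 and 11.48 on vesicle arrays 1 to 3, and 11.59, 11.57 and 11.50 on cell arrays 1 to 3. Its groups overlapped fully, and the log2 difference from control was -0.0087 ± 0.032 (SE) with vesicles and 0.014 ± 0.032 with cells. Fabp3 read 12.60 on the sham array, 12.63 and 12.60 on the controls, 12.64, 12.59 and 12.54 on the vesicle arrays and 12.64, 12.60 and 12.60 on the cell arrays, again with overlap and with vesicle array 3 lowest. Lpl differed from control by -0.026 ± 0.03 with vesicles and -0.00067 ± 0.03 with cells. Slc27a4 lay within the negative controls and gave values between 6.73 and 6.85.

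Slc27a1 (FATP1), a fatty acid transport protein that also activates its cargo, had the lowest unadjusted p of the 29 genes for vesicles against control. It read 8.62 and 8.59 on the control arrays, 8.48, 8.39 and 8.45 on the vesicle arrays, 8.63, 8.48 and 8.48 on the cell arrays and 8.31 on the sham array. All 3 vesicle arrays lay below both control arrays, while cell array 1 was level with the controls and cell arrays 2 and 3 were below both, level with vesicle array 1. The log2 difference from control was -0.15 ± 0.036 with vesicles, 0.901 of the control level (limma, unadjusted p = 0.00788, adjusted p = 0.675), and -0.056 ± 0.036 with cells. The value 8.48 stands on 3 arrays, and ties of this kind narrow the spread that the test uses. With sham counted as a control the difference was -0.057 (unadjusted p = 0.562).

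Fabp4 was 1 of 6 genes of the set above 0 for vesicles against control and 1 of 2 for vesicles against cells. It read 10.02 and 9.79 on the controls of experiments 9 and 1, 10.08, 9.88 and 9.88 on the vesicle arrays, 9.90, 9.82 and 9.72 on the cell arrays and 9.88 on the sham array. Within each experiment every vesicle array was above its control and above every cell array. The log2 difference was 0.07 ± 0.04 for vesicles against control and 0.13 ± 0.036 for vesicles against cells (limma, unadjusted p = 0.0144, adjusted p = 0.92). Fabp4 is made by endothelium and by fat cells. Of 7 fat cell markers, 6 were not above the negative controls on any array (Adipoq 3.67 to 3.76, Plin1 5.64 to 5.80). The other, Plin4, was above them on every array, at 8.54 to 8.77, as was Cidea of 3 brown fat cell markers, at 7.92 to 8.05. The mean level of 8 endothelial markers was 8.45 on the sham array and 8.52 to 8.74 on the other arrays. The part of endothelial RNA in the Fabp4 values was not tested.

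**Figure D2:**
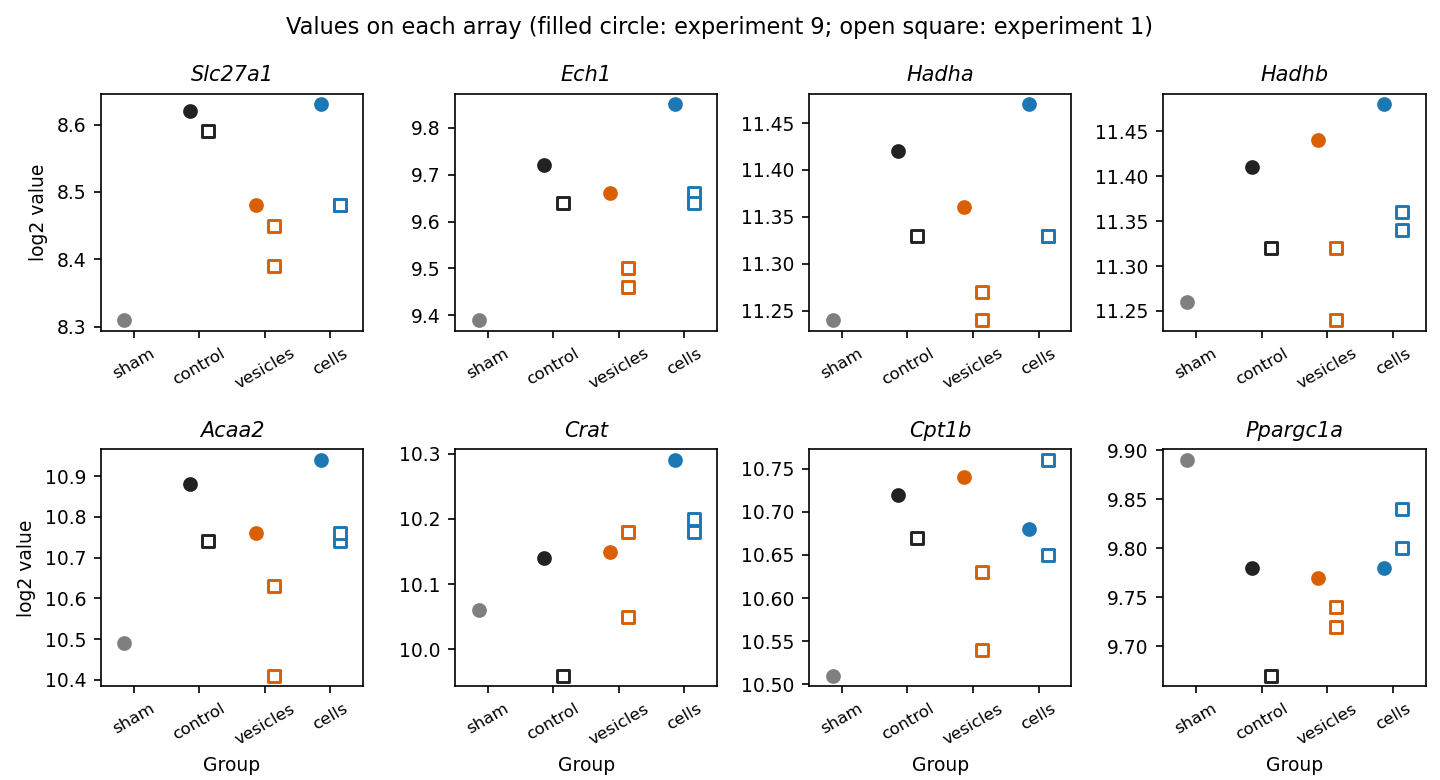
Log2 values of 8 genes, 1 per panel, on each of the 9 arrays by group; filled circles are experiment 9 and open squares experiment 1, and each panel has its own axis. Equal values overlie each other, as on cell arrays 2 and 3 for Slc27a1 and Hadha. Slc27a1 and Ech1 lie lower on the vesicle arrays than on the control of the same experiment, and Crat lies higher on every cell array than on both controls.

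The carnitine shuttle starts with carnitine palmitoyltransferase 1, the rate-limiting step, in its muscle form Cpt1b and its liver form Cpt1a; Slc25a20 carries acylcarnitine across the inner membrane, Cpt2 returns it to acyl-CoA, and Crat (carnitine acetyltransferase) handles short chains and acetyl groups. Cpt1b read 10.51 on the sham array, 10.72 and 10.67 on the controls, 10.74, 10.63 and 10.54 on the vesicle arrays and 10.68, 10.65 and 10.76 on the cell arrays. The sham array was lowest, just below vesicle array 3, the injected groups overlapped, and the log2 differences from control were -0.048 ± 0.06 with vesicles and 0.0093 ± 0.06 with cells. Cpt1a was the only gene of the 29 below both controls on all vesicle arrays and also on all cell arrays, by -0.075 ± 0.032 and -0.038 ± 0.032 (limma, unadjusted p = 0.0668 and 0.288). Slc25a20 spread more, at 9.39 on vesicle array 3 and 9.48 on the sham array against 9.63 to 9.75 elsewhere.

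Crat was the gene with the lowest unadjusted p for cells against control. It read 10.14 and 9.96 on the controls, 10.29, 10.18 and 10.20 on the cell arrays, 10.15, 10.18 and 10.05 on the vesicle arrays and 10.06 on the sham array. All 3 cell arrays were above both controls and above all 3 vesicle arrays, the closest by less than the last digit shown. The log2 difference was 0.19 ± 0.05 for cells, 1.14 times the control level (limma, unadjusted p = 0.0121, adjusted p = 0.682), and 0.093 ± 0.05 for vesicles. Without control array 2, the lowest of the 9 arrays for Crat, the difference for cells was 0.13 (unadjusted p = 0.128). Cpt2 read 9.61 on the sham array, 9.85 and 9.65 on the controls, 9.98, 9.73 and 9.84 on the cell arrays and 9.84, 9.75 and 9.62 on the vesicle arrays. The controls and cell arrays of Cpt2 overlapped across experiments but not within them, with a log2 difference of 0.13 ± 0.052 for cells (limma, unadjusted p = 0.0558, adjusted p = 0.682) and 0.016 ± 0.052 for vesicles.

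The first oxidation is done by acyl-CoA dehydrogenases that differ in chain length, Acadvl for very long, Acadl for long, Acadm for medium and Acads for short chains. Acadvl read 9.93 on the sham array, 10.23 and 10.13 on the controls, 10.14, 10.08 and 10.01 on the vesicle arrays and 10.28, 10.13 and 10.15 on the cell arrays. Every vesicle array was below the control of its own experiment and below every cell array of it. The log2 difference was -0.09 ± 0.028 against control and -0.11 ± 0.025 against cells (limma, unadjusted p = 0.0215 and 0.00545, adjusted p = 0.675 and 0.92). Acadm, the enzyme of the most common inherited defect of this pathway, read 11.09 on the sham array, 11.22 and 11.10 on the controls, 11.18, 11.12 and 11.01 on the vesicle arrays and 11.25, 11.12 and 11.02 on the cell arrays. Its treatment groups overlapped within experiment 1, and the differences were -0.036 ± 0.046 with vesicles and -0.011 ± 0.046 with cells. Acadl was 1 of 2 genes above 0 for vesicles against cells, at 0.037 ± 0.061, with Fabp4 the other.

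For chains of greater length the remaining steps are done by the mitochondrial trifunctional protein, whose alpha subunit Hadha hydrates and dehydrogenates the chain and whose beta subunit Hadhb is the thiolase. Hadha read 11.24 on the sham array, 11.42 and 11.33 on the controls, 11.36, 11.27 and 11.24 on the vesicle arrays and 11.47, 11.33 and 11.33 on the cell arrays. The vesicle arrays were below the control and the cell arrays of the same experiment, and the value 11.33 stands on 3 arrays. The log2 difference was -0.064 ± 0.021 against control and -0.084 ± 0.018 against cells (limma, unadjusted p = 0.0259 and 0.00527, adjusted p = 0.675 and 0.92). Hadhb read 11.26 on the sham array, 11.41 and 11.32 on the controls, 11.44, 11.32 and 11.24 on the vesicle arrays and 11.48, 11.36 and 11.34 on the cell arrays. Its vesicle arrays overlapped the controls, with -0.014 ± 0.031 against control and -0.063 ± 0.028 against cells.

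Promoter windows from RefSeq (GRCm38.p6, 250 bases before to 50 after each annotated start) were at hand for 23 of the 29 genes, in 25 windows. The genes without one are Cpt1b, Crat, Acaa2, Fabp4, Lpl and Decr1. Hadha and Hadhb are shown because the genes of these subunits start head to head, 273 bases apart, so that 1 stretch serves as the promoter of both; the stretch ends 23 bases short of each start. Ech1 and Acadvl are shown because they were among the 3 genes with the lowest unadjusted p for vesicles against cells. Capitals mark the nuclear receptor hexamer AGGTCA or the GC box GGGCGG, on either strand. The shared Hadha and Hadhb stretch lies at chr5:30155003-30155230 and is given on the plus strand, with 1 GC box; the 250 bases before the Ech1 start lie at chr7:28825088-28825337 on the plus strand, with 2 GC boxes; the 250 bases before the Acadvl start lie at chr11:70015429-70015678 on the minus strand, with 1 hexamer.
Hadha and Hadhb: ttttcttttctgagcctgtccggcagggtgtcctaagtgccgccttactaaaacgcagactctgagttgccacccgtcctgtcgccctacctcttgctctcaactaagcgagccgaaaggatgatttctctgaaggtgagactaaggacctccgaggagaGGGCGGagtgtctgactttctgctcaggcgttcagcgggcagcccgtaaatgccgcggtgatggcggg
Ech1: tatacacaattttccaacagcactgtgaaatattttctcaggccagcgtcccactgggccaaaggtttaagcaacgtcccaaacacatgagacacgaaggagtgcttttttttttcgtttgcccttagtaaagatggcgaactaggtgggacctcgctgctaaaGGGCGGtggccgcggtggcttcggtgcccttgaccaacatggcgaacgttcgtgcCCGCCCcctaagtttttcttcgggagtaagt
Acadvl: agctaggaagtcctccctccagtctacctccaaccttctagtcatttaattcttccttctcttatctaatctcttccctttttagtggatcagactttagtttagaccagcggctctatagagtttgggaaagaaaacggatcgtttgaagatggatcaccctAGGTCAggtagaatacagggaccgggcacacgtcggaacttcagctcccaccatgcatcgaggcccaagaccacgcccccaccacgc

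Searched on both strands, AGGTCA was present in the windows of 5 of the 23 genes (Acadm, Acadvl, Cd36, Cpt1a and Echs1) and in 16.3% of all 32851 RefSeq windows of that length. The direct repeat AGGTCANAGGTCA, the arrangement bound by PPAR with its partner RXR, was in none of the 25 windows as spelled and in 0.0396% of all windows. The extended hexamer TCAAGGTCA, which overlaps AGGTCA and is bound by estrogen-related receptors, was in none of the 25 and in 0.423% of all. The GC box GGGCGG, bound by the Sp factors, was in 19 of the 25 windows, of 18 genes, and in 35.7% of all windows. A match is a description of these letters, and its absence says nothing of factors that bind elsewhere or to other letters.

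The matrix enzymes for shorter chains are Echs1 (hydratase), Hadh (dehydrogenase) and Acaa2 (thiolase), and Eci1, Eci2, Ech1 and Decr1 rearrange double bonds so that unsaturated fatty acids can enter the cycle. Ech1 (dienoyl-CoA isomerase) read 9.39 on the sham array, 9.72 and 9.64 on the controls, 9.66, 9.46 and 9.50 on the vesicle arrays and 9.85, 9.66 and 9.64 on the cell arrays. In each experiment all vesicle arrays were below the control and below all cell arrays. Its difference for vesicles against cells was -0.18 ± 0.029, 0.883 of the level with cells (limma, unadjusted p = 0.00142, adjusted p = 0.92), and was -0.18 in experiment 9 and -0.18 in experiment 1. Against control, Ech1 differed by -0.12 ± 0.033 with vesicles (unadjusted p = 0.0143, adjusted p = 0.675) and 0.061 ± 0.033 with cells. Without control array 1, which leaves experiment 9 with no control array, the vesicle difference of Ech1 was -0.17.

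Acaa2, the thiolase that releases acetyl-CoA, read 10.49 on the sham array, 10.88 and 10.74 on the controls, 10.76, 10.63 and 10.41 on the vesicle arrays and 10.94, 10.74 and 10.76 on the cell arrays. The vesicle arrays were below the control of the same experiment, and vesicle array 3 was the lowest of the 9. The log2 difference was -0.18 ± 0.067 against control and -0.21 ± 0.06 against cells, 0.862 of the level with cells (limma, unadjusted p = 0.0435 and 0.0149, adjusted p = 0.675 and 0.92). Without vesicle array 3 these differences were -0.12 and -0.15. Eci1 followed the same order, from 9.17 on vesicle array 3 to 9.70 on cell array 1, with -0.16 ± 0.065 against control and -0.19 ± 0.058 against cells (unadjusted p = 0.0531 and 0.0204), and -0.10 and -0.13 without vesicle array 3.

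Decr1 (dienoyl-CoA reductase) was highest with cells: it read 9.58 and 9.39 on the controls, 9.80, 9.45 and 9.45 on the cell arrays, 9.59, 9.43 and 9.26 on the vesicle arrays and 9.33 on the sham array. Every cell array was above the control of its experiment, while vesicle arrays lay on both sides. The log2 difference was 0.13 ± 0.062 for cells against control (limma, unadjusted p = 0.0903, adjusted p = 0.682) and -0.14 ± 0.055 for vesicles against cells (unadjusted p = 0.0461, adjusted p = 0.92). Eci2 read 8.85 and 8.61 on the controls, 8.86, 8.68 and 8.53 on the vesicle arrays, 8.90, 8.70 and 8.70 on the cell arrays and 8.65 on the sham array. The vesicle arrays of Eci2 lay on both sides of their controls and the cell arrays above them. Hadh and Echs1 differed from control by -0.10 ± 0.079 and -0.012 ± 0.034 with vesicles, and by -0.021 ± 0.079 and 0.037 ± 0.034 with cells. Acaa1a, a peroxisomal thiolase, read between 6.44 and 6.51 on the 9 arrays, within the negative controls, with exactly the same value before rounding on 6 of them.

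Etfa, a subunit of electron transfer flavoprotein, and Etfdh, which hands its electrons to ubiquinone, differed from control by -0.011 ± 0.067 and 0.012 ± 0.031 with vesicles and by 0.025 ± 0.067 and 0.023 ± 0.031 with cells. Of the regulators, Ppara read 7.79 on the sham array, 7.92 and 7.73 on the controls, 7.79, 7.80 and 7.79 on the vesicle arrays and 7.68, 7.79 and 8.05 on the cell arrays. Its lowest and its highest value were both on cell arrays, and the difference for cells was 0.007 ± 0.12. Ppargc1a read 9.89 on the sham array, 9.78 and 9.67 on the controls, 9.77, 9.72 and 9.74 on the vesicle arrays and 9.78, 9.84 and 9.80 on the cell arrays. The sham array was the highest for Ppargc1a, in contrast to the enzymes, and all vesicle arrays lay below all cell arrays. Cells differed from control by 0.088 ± 0.038 (limma, unadjusted p = 0.0645, adjusted p = 0.682), with 0.00 in experiment 9 and 0.15 in experiment 1. The experiments differed in this by -0.15 ± 0.033 (limma interaction, unadjusted p = 0.0257, adjusted p = 0.189). Ppargc1a and Acaa1a were the genes of the set with an unadjusted p under 0.05 in that interaction (18.8% of all genes; 0.0% after adjustment).

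For vesicles against control, the enzymes of oxidation were mostly slightly lower: 13 of 14 were below 0, with a median log2 difference of -0.046, against 5 of 6 uptake genes (median -0.014) and 3 of 5 shuttle genes (median -0.048). Over the whole set 23 of 29 genes were below 0 (60.4% of all genes; 43.1% of the brighter genes), and the median was -0.026, against -0.012 for all genes and 0.0098 for the brighter genes. None of the 29 genes, and none of the 30142, had a Benjamini-Hochberg adjusted p under 0.05 (limma; 0.0% called, and 4 genes by least squares without moderation). At an unadjusted p under 0.05 there were 5 genes of the set, Slc27a1, Ech1, Acadvl, Hadha and Acaa2, all lower. That p was met by 1942 genes in all (6.44%, with 4.53% lower) and by 7.15% of the brighter genes (2.19% lower). Each vesicle array was below the control of its experiment for 8 genes (18.3% of all genes, 13.0% of the brighter genes). Each was above it for Crat and Fabp4 (10.6% of all genes, 23.8% of the brighter genes). All vesicle arrays were below both controls for Cpt1a and Slc27a1 (7.17%), a share near that of all genes. Beside these values, fibroblast markers were above control for 7 of 7 (median 0.14, with 0.19 in experiment 9 and 0.13 in experiment 1), 2 of them at an unadjusted p under 0.05. Heart muscle markers were below control for 5 of 10 (median -0.014), 2 of them at an unadjusted p under 0.05. None of these markers passed adjustment (limma), and their part was not tested. Without vesicle array 3, the one with lung transcripts, 16 of 29 genes were below 0 and the median was -0.0084. In that array alone 25 of 29 genes were below control array 2, with a median of -0.079, while vesicle array 2 had 13 lower and 15 higher. With sham counted as a control there were 14 genes below 0 and none at an unadjusted p under 0.05.

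For cells against control the set lay slightly higher, as the brighter genes did: 21 of 29 genes were above 0 (44.1% of all genes; 66.5% of the brighter genes), with a median of 0.022 against 0.02 for the brighter genes. Of the 14 oxidation genes 10 were above 0 (median 0.031), of the 5 shuttle genes 4 (median 0.04) and of the 6 uptake genes 3 (median 0.0048). No gene of the set and none of all genes passed adjustment (limma; 0.0% called, 0 by least squares), and Crat was the 1 gene of the set at an unadjusted p under 0.05 (6.73%; 2029 genes in all). Each cell array was above the control of its experiment for 7 genes, Cpt2, Crat, Hadhb, Echs1, Eci2, Fabp3 and Decr1 (8.86% of all genes; 15.8% of the brighter genes). All cell arrays were above both controls for Crat (3.20% of all genes, 4.96% of the brighter genes), a share near that of all genes. They were below both for Cpt1a (5.57%, and 2.11% of the brighter genes). After quantile normalization 16 of 29 genes were below 0 and the median was -0.0017. With arrays centred on their median, 3 genes were below 0 and the median was 0.052, so the direction of the set differed between these scalings.

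Between vesicles and cells nearly every gene of the set lay in 1 direction: 27 of 29 were lower with vesicles (52.0% of all genes; 56.2% of the brighter genes), 13 of 14 in oxidation (median -0.081) and 5 of 5 in the shuttle (median -0.10). The median over the set was -0.063, against -0.0007 for all genes and -0.0075 for the brighter genes, and it was -0.042 in experiment 9 and -0.073 in experiment 1. No gene of the set passed adjustment (limma; smallest adjusted p = 0.92), nor did any of all genes (0.0% called; smallest adjusted p = 0.823). At an unadjusted p under 0.05 there were 8 genes of the set (4.34% of all genes, 1309 in all, and 7.24% of the brighter genes). Of these, 7 were lower with vesicles (2.59%, and 4.75% of the brighter genes), namely Ech1, Hadha, Acadvl, Acaa2, Eci1, Slc27a1 and Decr1. Fabp4 was higher (1.75%, and 2.49% of the brighter genes). The vesicle array was below the cell array of the same VTS number in all 3 numbers for 15 genes (8.83% of all genes; 12.3% of the brighter genes), and above it for Fabp4 (7.53%). All vesicle arrays were below all cell arrays for Crat and Ppargc1a (2.56%). Without vesicle array 3 there were 24 genes below 0 and the median was -0.026, and without that array and cell array 3, which shares its VTS number, 21 genes and -0.032. With no experiment term in the fit none of the 29 genes had an unadjusted p under 0.05.

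**Figure D3:**
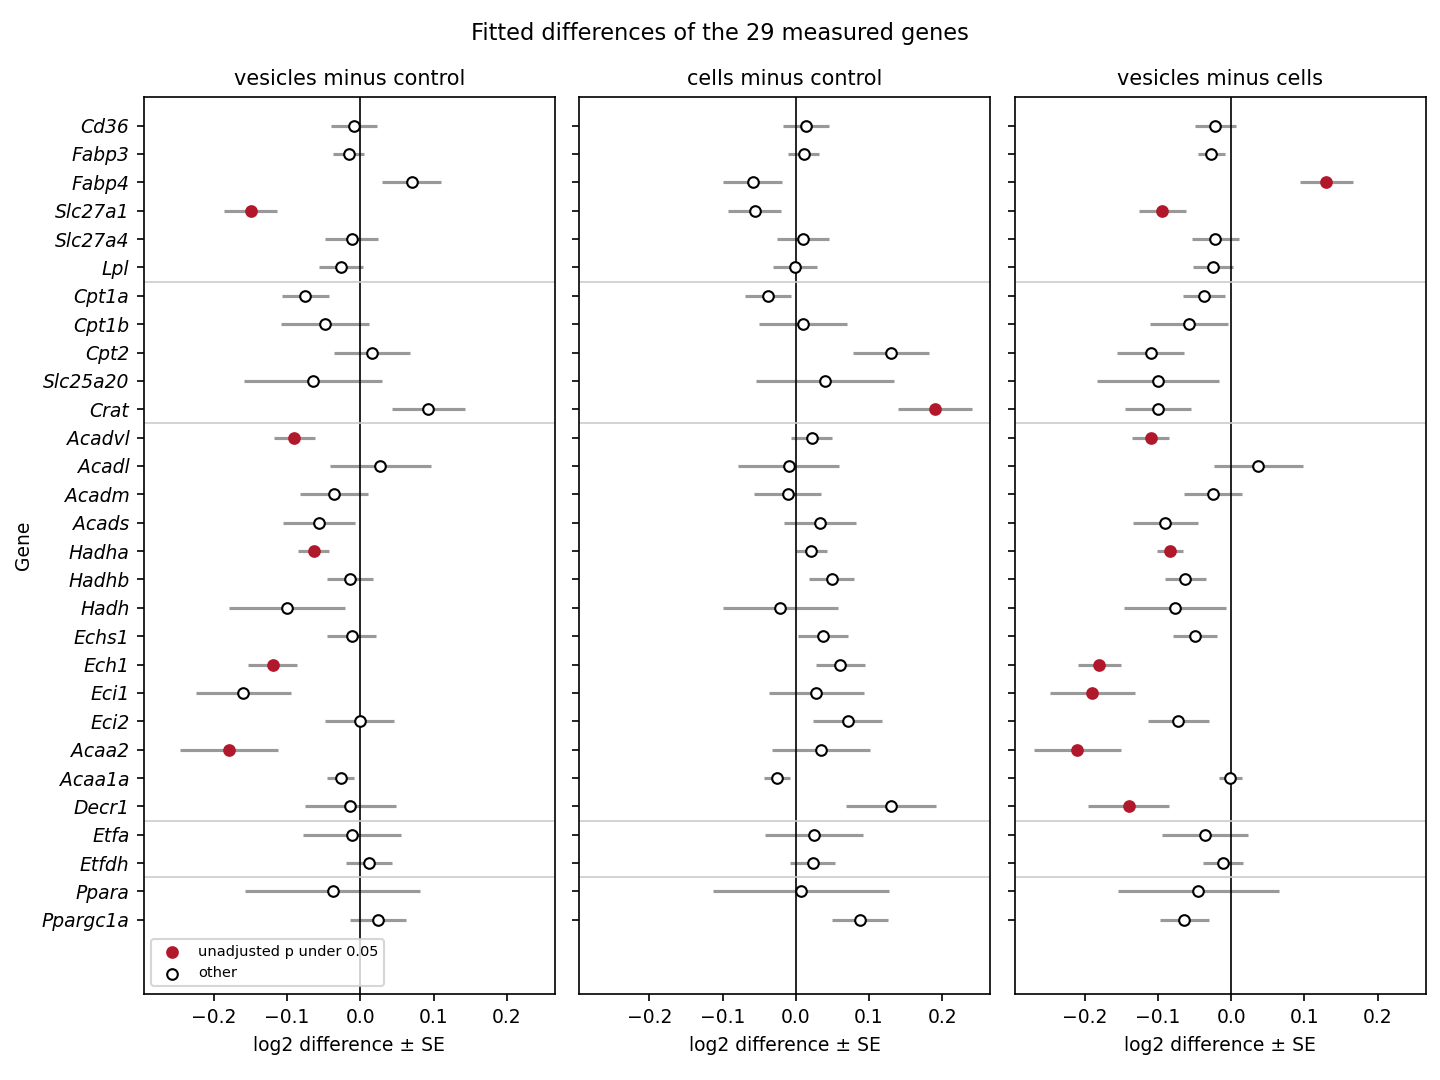
Fitted log2 difference of each gene with its SE, over 2 control, 3 vesicle and 3 cell arrays with experiment as a block, in 3 panels for vesicles minus control, cells minus control and vesicles minus cells. Filled points have an unadjusted p under 0.05; none passed adjustment, and in the panel of vesicles minus cells 27 of 29 points lie below 0.

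Markers of other cell types moved beside the set in the comparison of vesicles with cells. By VTS number 3, 1 and 2, the median difference of the 29 genes was -0.042, -0.016 and -0.1; that of the 10 heart muscle markers was -0.038, -0.03 and -0.067; and that of the 7 fibroblast markers was 0.33, 0.26 and 0.061. Heart muscle markers were lower with vesicles for 7, 7 and 9 of 10 in that order, and fibroblast markers higher for 6, 7 and 4 of 7. In the fit, 8 of 10 heart muscle markers were lower with vesicles, 4 of them at an unadjusted p under 0.05. Fibroblast markers were higher for 7 of 7, 2 of them at that p. None of these markers passed adjustment (limma). The part of muscle and scar content in the difference was not tested. Vesicle array 3 had 4 of 7 lung markers not above the negative controls and a mean lung level of 7.30, against 7 of 7 and 4.82 to 5.28 on the other arrays.

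Among the fitted comparisons the median of the set was farthest from 0 between the experiments. Over the 8 arrays of injected groups, 26 of 29 genes were higher in experiment 9 than in experiment 1 (41.5% of all genes; 67.5% of the brighter genes), with a median log2 difference of 0.11 (all genes -0.01, brighter genes 0.029). Of the oxidation genes 13 of 14 were higher, with a median of 0.15; the shuttle gave 5 of 5 (0.094) and uptake 5 of 6 (0.067). The arrays of injected groups in experiment 9 were all above those of experiment 1 for 15 genes (4.18% of all genes; 12.5% of the brighter genes). At an unadjusted p under 0.05 there were 19 genes of the set, all higher. That p was met by 12.8% of all genes (6.20% higher) and by 22.1% of the brighter genes (18% higher). None of the set passed adjustment (limma; 0.0% of all genes called, 2 genes by least squares). The lowest p was that of Hadha, 0.11 ± 0.017 (unadjusted p = 0.000936, adjusted p = 0.219), followed by Eci2 at 0.23 ± 0.038 and Ech1 at 0.16 ± 0.026 (adjusted p = 0.23 for both). Fabp4 and Decr1 differed by 0.18 ± 0.032 and 0.27 ± 0.049 (adjusted p = 0.251 and 0.256). The regulators lay near 0: Ppara differed by -0.036 ± 0.097 and Ppargc1a by 0.029 ± 0.03. Heart muscle markers were higher in experiment 9 for 10 of 10 (median 0.071), 8 of them at an unadjusted p under 0.05. Fibroblast and macrophage markers were lower for 6 of 7 and 7 of 7 (medians -0.28 and -0.29), 4 and 6 of them at that p. None of these markers passed adjustment (limma), and their part was not tested. After quantile normalization the median was 0.057 with 12 genes at an unadjusted p under 0.05, and with sham counted as a control there were 7.

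**Figure D4:**
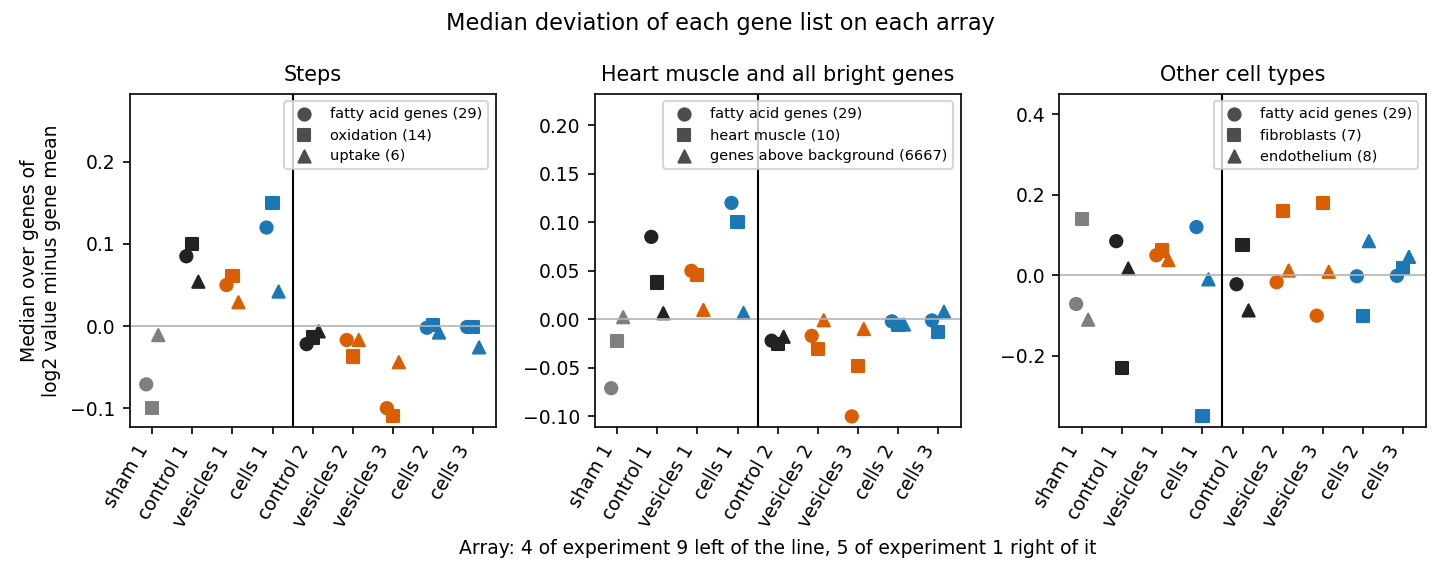
Median over each gene list of the log2 value minus the gene mean over the 9 arrays, in 3 panels, with sham in grey, control in black, vesicles in orange and cells in blue. For the 29 fatty acid genes the sham array lies at -0.071 and vesicle array 3 at -0.10, while the injected arrays of experiment 9 lie at 0.05 to 0.12 and the other arrays of experiment 1 near 0.

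The sham heart, infarcted as the others were but with nothing injected, was the low array of experiment 9. Against control array 1 it was lower for 28 of 29 genes (40.9% of all genes; 48.7% of the brighter genes), with a median log2 difference of -0.16, and it was below all 3 other arrays of experiment 9 for 25 genes (20.2% of all genes; 29.9% of the brighter genes). All 14 oxidation genes were lower, with a median of -0.21; the shuttle and uptake genes had medians of -0.2 and -0.074. The distances were widest in Eci1 (-0.41), Acaa2 (-0.39), Ech1 (-0.34), Acadvl (-0.30) and Slc27a1 (-0.30), and Ppargc1a was the 1 gene higher (0.11). With 1 sham array there is no test. On the same pair of arrays, 10 of 10 heart muscle markers were lower (median -0.078), 8 of 8 endothelial markers were lower (median -0.14), and 7 of 7 fibroblast and 7 of 7 macrophage markers were higher (medians 0.28 and 0.24). Their part in the low values was not tested. Control array 1 was itself below control array 2 for 2 of 29 genes (51.1% of all genes, 28.9% of the brighter genes), with a median difference of 0.11. Against control array 2, of experiment 1, the sham array was lower for 21 of 29 genes (53.1% of all genes, 32.4% of the brighter genes), with a median of -0.04.

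Beyond the 29 genes, 62 of 69 further genes of fatty acid handling were measured: peroxisomal oxidation, propionyl-CoA enzymes, thioesterases, lipid droplets, and further transporters and regulators. None passed adjustment in either direction in any comparison (limma). On each array 23 to 25 of the 62 genes were not above the negative controls. Of those named below, Slc27a3 (6.03 to 6.22), Sirt3 (6.77 to 6.88) and Abcd2 (6.06 to 6.33) lay within the negative controls on every array. Ucp3 was above them on control array 1 alone, at 7.36. With vesicles against control 49 of 62 were lower (60.4% of all genes, 43.1% of the brighter genes), with a median of -0.037 (all genes -0.012, brighter genes 0.0098). At an unadjusted p under 0.05, 3 were lower (4.53% of all genes, 2.19% of the brighter genes), a share near that of all genes. In the other direction there were 0 (1.91%, and 4.96% of the brighter genes). The 3 lower genes were Slc27a3, a fatty acid transport protein (-0.088 ± 0.029), Sirt3, the mitochondrial deacetylase (-0.085 ± 0.029), and Pccb, a propionyl-CoA carboxylase subunit (-0.059 ± 0.022). Hsd17b10, a dehydrogenase of the cycle, stood at -0.094 ± 0.037. With cells 30 of 62 were lower (55.8% of all genes, 33.5% of the brighter genes), with a median of 0.0011 (brighter genes 0.02). At an unadjusted p under 0.05, 2 were lower (5.05% of all genes, 0.885% of the brighter genes). The 2 were Slc27a3, at -0.094 ± 0.029, close to its value with vesicles, and Abcd2, a peroxisomal transporter, at -0.11 ± 0.034. Between vesicles and cells 47 of 62 were lower with vesicles (52.0% of all genes, 56.2% of the brighter genes), with a median of -0.027 (brighter genes -0.0075). At an unadjusted p under 0.05, 5 were lower (2.59%, and 4.75% of the brighter genes) and 1 higher (1.75%, and 2.49% of the brighter genes). Rxrg, a partner of Ppara, had the lowest p there: it read 8.49 and 8.43 on the controls, 8.33, 8.42 and 8.29 on the vesicle arrays, 8.53, 8.55 and 8.53 on the cell arrays and 8.27 on the sham array. All vesicle arrays of Rxrg were below both controls (7.17% of all genes, 5.61% of the brighter genes). Its cell arrays were all above both (3.20%, and 4.96% of the brighter genes). The log2 difference of Rxrg was -0.19 ± 0.04 between vesicles and cells (limma, unadjusted p = 0.00525, adjusted p = 0.92). Between experiments 42 of 62 genes were higher in experiment 9 (41.5% of all genes, 67.5% of the brighter genes). Their median over the 62 was 0.038 (brighter genes 0.029). At an unadjusted p under 0.05, 16 were higher (6.20% of all genes, 18% of the brighter genes). Dgat2, which makes triglyceride, led them (0.34 ± 0.05; limma, adjusted p = 0.222). Ucp3, a mitochondrial carrier that follows fatty acid supply, was also among them (0.44 ± 0.083; adjusted p = 0.259).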

How the data were processed

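Total RNA from whole hearts was hybridised to 9 Affymetrix whole-transcript arrays, per the labels' protocols. The authors deposited 1 value per probe set and array, read here as log2 from its range of 1.55 to 14.17 and taken as already scaled between arrays, since array medians are nearly equal; Partek is named without role in the submitters' processing notes, and for background correction, summary and scaling the method is not given in these sources. Scaling arrays to each other would remove a shift shared by most genes. Of 80202 probe sets, 30604 had 1 symbol in the platform annotation; symbols were updated through RefSeq (GRCm38.p6; 22818 matched), and the probe set with the highest mean was kept for each of 30142 genes. In the table, 61.1% of genes have 1 value on 3 or more arrays, which narrows their spread; among the 29 genes these are Acads, Hadha, Acaa1a, Slc27a1, Slc27a4 and Ppara. There is no read depth, and the number of arrays limits the precision.

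The 8 injected arrays were fitted with limma 3.58.1 (lmFit and eBayes, R 4.3.3), with treatment means and experiment as a fixed block; tests were two-sided, adjusted by Benjamini-Hochberg over all 30142 genes at 0.05, and checked on simulated data. An interaction fit compared experiments. All comparisons share arrays: the 2 controls enter both comparisons with control. The sham array was in no test. Genes given array by array were the 5 with the lowest unadjusted p per comparison, plus Cpt1b, Cd36, Fabp3, Acadm, Hadha, Ppara and Ppargc1a; of the further genes up to 4 per comparison, taken in order of unadjusted p where experiments 9 and 1 had 1 sign, and of marker lists up to 3 with the highest mean. Hadhb, Sftpc, Scgb1a1, Adipoq and Plin1 were also picked out after their values were seen. The members and lists were chosen with earlier results of these data known. Alternatives covered normalization, a filter on dim genes, the block, the sham array as a control, the probe set rule, the variance model and leaving out each array; leaving out tied genes, and leaving out vesicle array 3 with cell array 3, were added after seeing the data.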

Additional observations from a re-analysis of the deposited data

How the results depend on the processing

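No gene of the set was called between treatments or experiments in any setting run, and the median of the 29 genes changed sign in 2 cases, to 0.00066 for vesicles against control with sham counted as a control and to -0.0017 for cells against control after quantile normalization. The number of genes called among all genes was 4 for vesicles against control and 2 for the experiments with least squares, 1 for cells against control with sham counted as a control, and 2 for the experiments without tied genes. For vesicles against control, the genes of the set below 0 numbered 15 with arrays centred on their median and 14 with the sham array pooled; those at an unadjusted p under 0.05 numbered 2 with centring, 1 with no experiment block, 0 with the sham pooled, 1 without tied genes and 3 without vesicle array 3 and cell array 3. For cells against control, the genes below 0 numbered 16 after quantile normalization, 3 with centring and 3 with the sham pooled; those at an unadjusted p under 0.05 numbered 5 with centring, 2 with the VTS number as the block, 2 with the sham pooled and 0 without vesicle array 3 and cell array 3, and the median was 0.052 with centring. For vesicles against cells, those at an unadjusted p under 0.05 numbered 0 with no experiment block, 1 with the sham pooled and 5 without tied genes, and the median was -0.032 without vesicle array 3 and cell array 3. For experiment 9 against 1, those at an unadjusted p under 0.05 numbered 12 after quantile normalization and 7 with the sham pooled; the genes below 0 numbered 5 after quantile normalization, 1 with centring and 0 without tied genes; and the median was 0.057 after quantile normalization and 0.15 with centring. Leaving out tied genes leaves 23 of the 29; the cause of the other shifts was not tested.

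Leaving out 1 array at a time, 0 to 823 of all genes were called for vesicles against control and 0 to 901 for cells against control, both high counts being without control array 1, with 0 for the other comparisons. The genes of the set at an unadjusted p under 0.05 ranged from 0 (without control array 2) to 8 for vesicles against control, 1 to 3 for cells against control, 4 to 12 for vesicles against cells and 12 to 18 for the experiments. The genes below 0 ranged over 16 to 25, 6 to 11, 24 to 28 and 2 to 4 in that order of comparisons, and the medians over -0.038 to -0.0084, 0.011 to 0.035, -0.078 to -0.026 and 0.1 to 0.12. A setting without the experiment block, or with the VTS number in its place, gives no difference between experiments. The replicate numbers follow accession order and pair no arrays. The VTS number, which joins 1 vesicle and 1 cell array in each of 3 numbers, was run as the block: the genes of the set at an unadjusted p under 0.05 were then 4 for vesicles against control, 2 for cells against control and 8 for vesicles against cells, and none was called. With 2 controls, 1 in each experiment, the controls' own spread within an experiment could not be measured.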
